A study of Rhinolophus ferrumequinum with 8 samples.

Results

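The Mediator subunits described here are the genes of the deposited table whose name is MED followed by a number, with or without a trailing L, and whose mean over the 8 libraries was at least 1. All 30 genes with such a name met that minimum, of 19652 genes in the table and 13542 with a mean of at least 1. They comprise 7 head, 9 middle and 9 tail genes and the scaffold gene MED14, which make up the core here (26 genes), and 4 kinase module genes, MED12, MED12L, MED13 and MED13L. The module of each gene is textbook knowledge and not a reading of these data, and some subunits, such as MED27 to MED30, are placed in the head or in the tail by different sources.

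Mediator is a large protein complex that passes signals from transcription factors bound at enhancers to RNA polymerase II at promoters. Its head and middle contact the polymerase and the initiation factors, its tail is contacted by many activators, and MED14 runs through the complex and holds these parts together. The kinase module joins the core reversibly: MED13 or its paralog MED13L docks it, MED12 or MED12L activates the kinase CDK8 or CDK19 together with cyclin C (CCNC), and a docked module is known to hinder binding of the polymerase. In spleen, Mediator serves the same general role in lymphocytes, macrophages and stromal cells.

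Wild female greater horseshoe bats (Rhinolophus ferrumequinum) gave whole spleens for RNA sequencing, with 2 biological replicates in each of 4 states. Summer active bats were sampled in July. Torpor, the cold and low-metabolism phase of hibernation, was sampled in November, as were arousal at 2 h after capture and the winter active state at 26 h after capture. The labels give no age, and nothing says which libraries were prepared together. The number after a state, as in torpor 1, is the replicate.

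Values are rescaled TPM, a transcript abundance corrected for length, so levels may be compared between genes, and depth per library is unknown since no counts were used. Replicates correlated at r = 0.915 in summer active, 0.959 in torpor, 0.937 in arousal and 0.959 in winter active over the log2 values of the genes tested. Markers of splenic B cells (8 of 8 in the table) and red pulp macrophages (9 of 9) were above 0 in every library, as was each of the 5 T-cell markers found of 8 listed. Markers of other organs differed between libraries of 1 state: the summed level of 7 hepatocyte markers was 17182 in arousal 2 and 1011 in arousal 1, and that of 3 squamous and gastric markers was 1617 in summer active 2 and 0.318 in summer active 1. Sums per column were 745098 to 1331820, and the 30 Mediator genes together stood between 901 and 1018 in all 8 libraries.

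Core subunits made up most of the Mediator signal. The highest 8-library means were those of MED21, a middle subunit (NCBI gene 117029302), at 121, the head subunit MED11 (117013650) at 97.6 and the middle subunit MED10 (117024443) at 79.9. The lowest were MED12L (117012215) at 1.15, MED26 (117038254), a middle subunit that recruits elongation factors, at 4.70, and MED23 (117020104), a tail subunit contacted by signal-regulated activators such as ELK1, at 6.99. The median of the 8-library means was 23.9 for core genes and 11.7 for the kinase module genes, with MED13L (117017311) at 13.7, MED12 (117023604) at 12.7 and MED13 (117012956) at 10.7. Subunits that sit together in 1 complex thus differed widely in transcript level within the same libraries. In the annotation MED11, MED12L, MED14 and MED24 overlap other coding genes, so reads could be split there, as they could between the paralogs MED12 and MED12L and between MED13 and MED13L.

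Levels of core subunits varied little across the 8 libraries. The SD of log2(value + 1) over the libraries had a median of 0.24 for the 26 core genes, against 0.38 over all genes tested. MED31, a small middle subunit conserved from yeast, had the smallest SD of the 30 genes (0.12), with values of 49.9 and 46.0 in summer active, 56.1 and 47.2 in torpor, 54.2 and 53.7 in arousal and 49.3 and 58.5 in winter active. The head subunit MED20 was as even (0.12), at 17.6 to 22.6. The 2 largest SDs of the 30 were those of MED13L (0.70) and MED15 (0.58). The tail subunit MED15, which binds the sterol regulators SREBP in mammals, owed its spread to single libraries: it stood at 99.3 and 39.6 in summer active, 67.6 and 73.6 in torpor, 146 and 53.2 in arousal and 55.0 and 59.1 in winter active, so that the 2 arousal libraries lay further apart than any 2 state means.

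**Figure D1:**
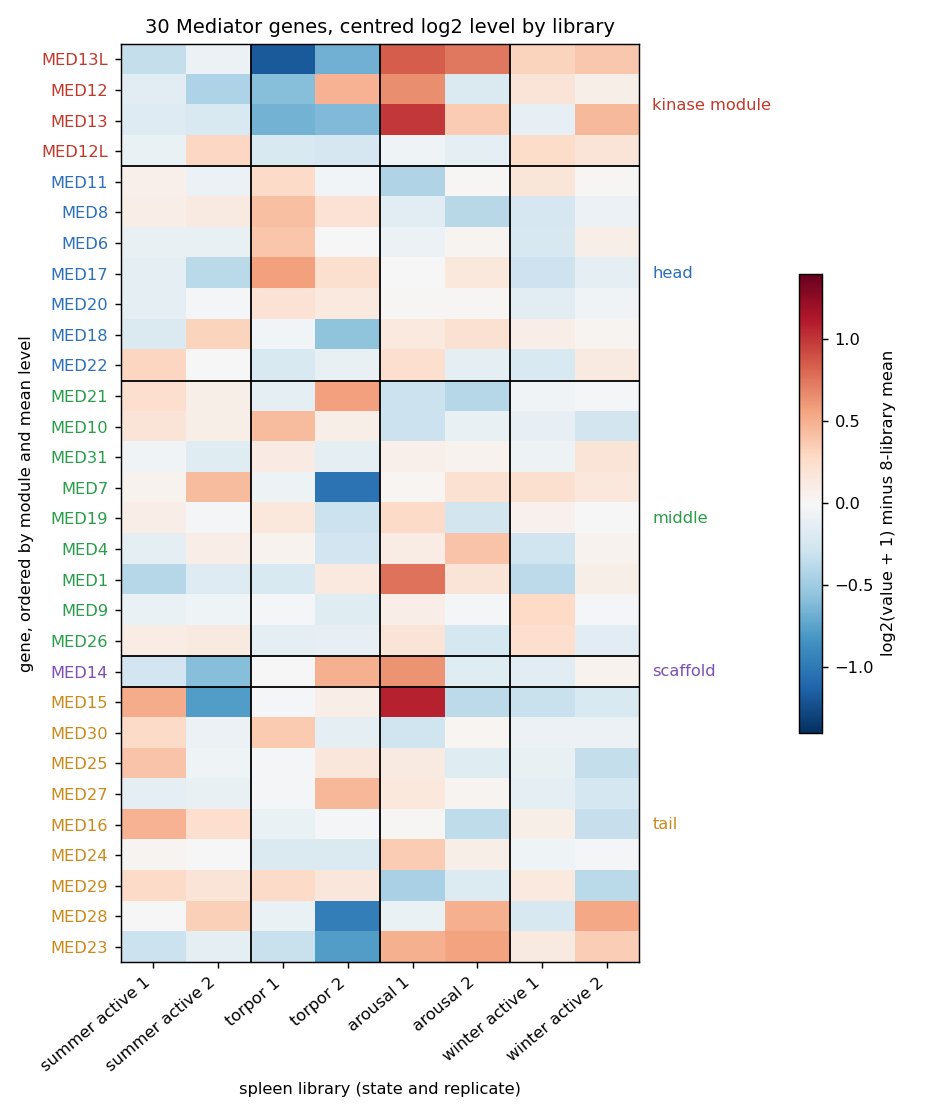
Centred log2 level, log2(value + 1) minus the 8-library mean, of the 30 Mediator genes (rows, by module and mean level) in the 8 spleen libraries (columns). MED13L and MED13 are low in both torpor libraries and high in both arousal libraries, while MED31 and MED20 hardly move (SD 0.12 each).

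Head subunits, which contact the polymerase most directly, had a median SD of 0.21. MED17, around which the head is built, stood at 26.9 and 22.4 in summer active, 44.2 and 34.4 in torpor, 29.4 and 32.7 in arousal and 23.8 and 26.7 in winter active. Both of its torpor libraries were above the other 6. MED8 had the same feature, at 45.7 and 46.9 in summer active, 57.8 and 49.2 in torpor, 38.6 and 32.4 in arousal and 36.3 and 40.3 in winter active. MED8, MED18 and MED20 form a movable part of the head in yeast. MED20, though even in level, also had its torpor libraries (22.6 and 21.6) above the other 6 (17.5 to 19.7), while MED18 had 18.6 and 12.6 in torpor and 16.5 to 23.9 in the other 6 libraries. Of the remaining head genes, MED6 ranged from 35.6 to 55.1, MED11 from 71.8 to 117 and MED22 from 13.0 to 18.9, with overlap between most pairs of states.

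Among the middle subunits, MED21 stood at 140 and 125 in summer active, 108 and 177 in torpor, 96.1 and 89.6 in arousal and 114 and 117 in winter active. Its arousal libraries were the lowest, and its torpor libraries were the lowest but 2 and the highest of the 8. Its yeast hinge partner MED7 was low in torpor 2 (16.2) and at 32.3 to 46.8 in the other 7 libraries. MED1 was at 21.8 and 14.2 in arousal and 9.23 to 13.7 in the other 6 libraries, so its arousal libraries were the highest. MED4, MED9, MED10, MED19 and MED26 varied by at most 1.68-fold between the highest and the lowest library, and MED26, at 3.76 to 5.67, had lower values than in torpor (4.19 and 4.22) in 1 arousal and 1 winter active library. MED14, the scaffold, stood at 14.3 and 11.2 in summer active, 17.5 and 24.8 in torpor, 27.3 and 15.3 in arousal and 15.5 and 18.0 in winter active, lowest in both summer active libraries.

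Tail subunits, which activators contact, had a median SD of 0.28. MED24, which with MED23 and MED16 forms part of the tail in mammals, stood at 19.9 and 19.6 in summer active, 16.8 and 16.8 in torpor, 25.0 and 20.6 in arousal and 18.6 and 19.2 in winter active. The step between its state means was small beside those of MED23. MED16 stood at 30.2 and 25.2 in summer active, 19.9 and 20.8 in torpor, 21.6 and 16.4 in arousal and 22.6 and 16.8 in winter active, with both summer active libraries above the other 6. MED28 split replicates in 3 states, with 10.8 and 5.44 in torpor, 10.9 and 16.8 in arousal and 9.83 and 17.4 in winter active. MED25 ranged from 24.6 to 41.6, MED27 from 24.5 to 40.9, MED29 from 13.4 to 22.7 and MED30 from 43.3 to 68.7.

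MED13L separated all 4 states. It stood at 9.60 and 11.6 in summer active, 4.91 and 7.38 in torpor, 23.0 and 21.4 in arousal and 15.7 and 16.4 in winter active. The 4 states did not overlap, in the order torpor, summer active, winter active and arousal. MED23 had the same order without overlap, at 5.18 and 6.03 in summer active, 5.17 and 3.43 in torpor, 9.77 and 10.3 in arousal and 7.32 and 8.68 in winter active, although torpor 1 and summer active 1 lay close together. Of the 30 genes, 3 separated all 4 states, the other being the tail subunit MED24 in the order torpor, winter active, summer active and arousal, against 3.77% of all genes tested. The order seen in MED13L and MED23 was met by 0.650% of all genes tested. That order was picked after the values of these genes were seen, so the 0.650% cannot show whether their pattern is rare. The share for any order, 3.77%, does not depend on that choice.

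The paralog MED13 had a similar course with more scatter, at 8.66 and 8.46 in summer active, 5.91 and 6.14 in torpor, 20.7 and 13.0 in arousal and 9.09 and 14.0 in winter active. Its torpor libraries were the lowest and those of winter active and arousal overlapped. MED12, which activates the kinase, showed no such course: it stood at 10.8 and 8.72 in summer active, 7.71 and 17.4 in torpor, 19.7 and 10.4 in arousal and 13.9 and 12.9 in winter active, and the 2 torpor libraries alone spanned most of its range. Its paralog MED12L was near 1 throughout, at 0.994 and 1.60 in summer active, 0.837 and 0.813 in torpor, 1.04 and 0.944 in arousal and 1.53 and 1.41 in winter active. Its torpor libraries were the lowest of the 8, and at that level the log2(value + 1) scale understates differences.

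The kinases of the module had unlike courses. CDK8 (NCBI gene 117021606) stood at 7.64 and 8.25 in summer active, 9.46 and 10.04 in torpor, 8.29 and 6.93 in arousal and 5.03 and 7.76 in winter active, with both torpor libraries above the other 6. Its paralog CDK19 (117017396) stood at 15.0 and 15.9 in summer active, 10.9 and 15.1 in torpor, 17.3 and 18.0 in arousal and 16.8 and 18.8 in winter active. CCNC (117020322) overlapped between all states, from 19.8 in arousal 1 to 42.0 in summer active 2. These genes are not named MED and are given as the partners of the 4 kinase module members. No call was made for any of the 3 in the 7 comparisons (limma adjusted p = 0.264 to 0.998). After columns were set to totals of 1000000 only CDK19 at arousal against summer active passed (log2 difference 0.91, adjusted p = 0.0200). That setting does not single it out, since 43.1% of all genes tested were then called higher in this comparison, with an all-gene median of 0.76.

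**Figure D2:**
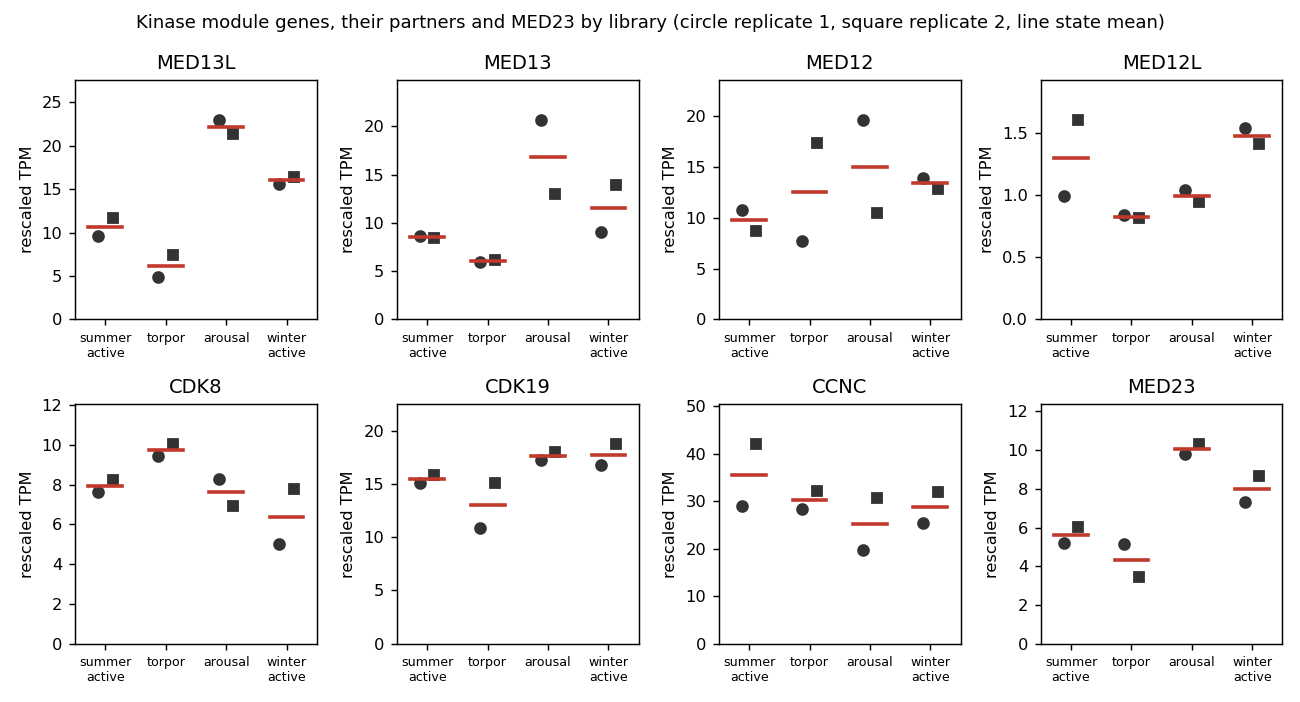
Rescaled TPM (y axis, from 0) of the kinase module genes, their partners and MED23 in each state; circles are replicate 1, squares replicate 2 and lines state means (n = 2). MED13L separates all 4 states, from 4.91 in torpor 1 to 23.0 in arousal 1, while the 2 torpor libraries of MED12 stand at 7.71 and 17.4.

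The first comparison sets the early hours of rewarming (2 h after capture) against the cold state. MED13L stood at 22.2 ± 1.15 in arousal and 6.15 ± 1.74 in torpor (SD, n = 2 each), a log2 difference of 1.72 (SE 0.24, adjusted p = 0.142). MED13 averaged 16.8 ± 5.45 in arousal and 6.02 ± 0.165 in torpor, with a log2 difference of 1.31 (SE 0.30, adjusted p = 0.143). MED23 averaged 10.04 ± 0.379 in arousal and 4.30 ± 1.23 in torpor (log2 difference 1.08, SE 0.25, adjusted p = 0.148). In all 3 genes both arousal libraries lay above both torpor libraries, yet none passed limma's threshold, a Benjamini-Hochberg adjusted p under 0.05. Differences in log2(value + 1) are used for all tests, and adjusted p-values are limma's over all 13542 genes.

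No Mediator gene passed in arousal against torpor, where 0% of all genes tested passed, and 5 of 30 had an unadjusted p under 0.05, against 19.7% of all genes tested. Both libraries of arousal lay above both of torpor for 10 members and below for 6, against 31.9% and 22.2% of all genes tested. Both counts were close to those shares. The median log2 difference was 0.80 over the 4 kinase module genes, 0.022 over the 26 core genes and 0.11 over all genes tested. Among core genes, differences ran from -0.58 for the head subunit MED8, at 35.5 ± 4.38 in arousal and 53.5 ± 6.08 in torpor (SE 0.19, adjusted p = 0.187), to that of MED23. The middle subunits MED21 and MED10 and the tail subunit MED29 also lay lower without overlap (-0.57, -0.46 and -0.54), and MED7, MED28 and MED1, which binds nuclear receptors, lay higher without overlap (0.67, 0.74 and 0.51). MED12, MED12L, CDK8, CDK19 and CCNC differed by 0.28, 0.13, -0.32, 0.43 and -0.28. The sign of CDK8 and CCNC turned when columns were set to 1000000 (0.016 and 0.085), that of MED12L with quantile normalization (-0.086), and that of MED12 without torpor 1 (-0.26) or arousal 1 (-0.15).

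How libraries are scaled decided the calls at arousal. The summed values fell short of 1000000 in both arousal libraries (745098 and 780490) and were 986814 and 998271 in torpor. With every column set to 1000000, the median over all genes tested moved from 0.11 to 0.45, and MED13L, MED13 and MED23 passed (adjusted p = 0.0456, 0.0472 and 0.0465), against 3.26% of all genes tested called higher. Their differences then stood at 2.09, 1.67 and 1.43. Median-of-ratios rescaling and quantile normalization, which hold the middle of the distribution even, gave no member past the threshold.

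**Figure D3:**
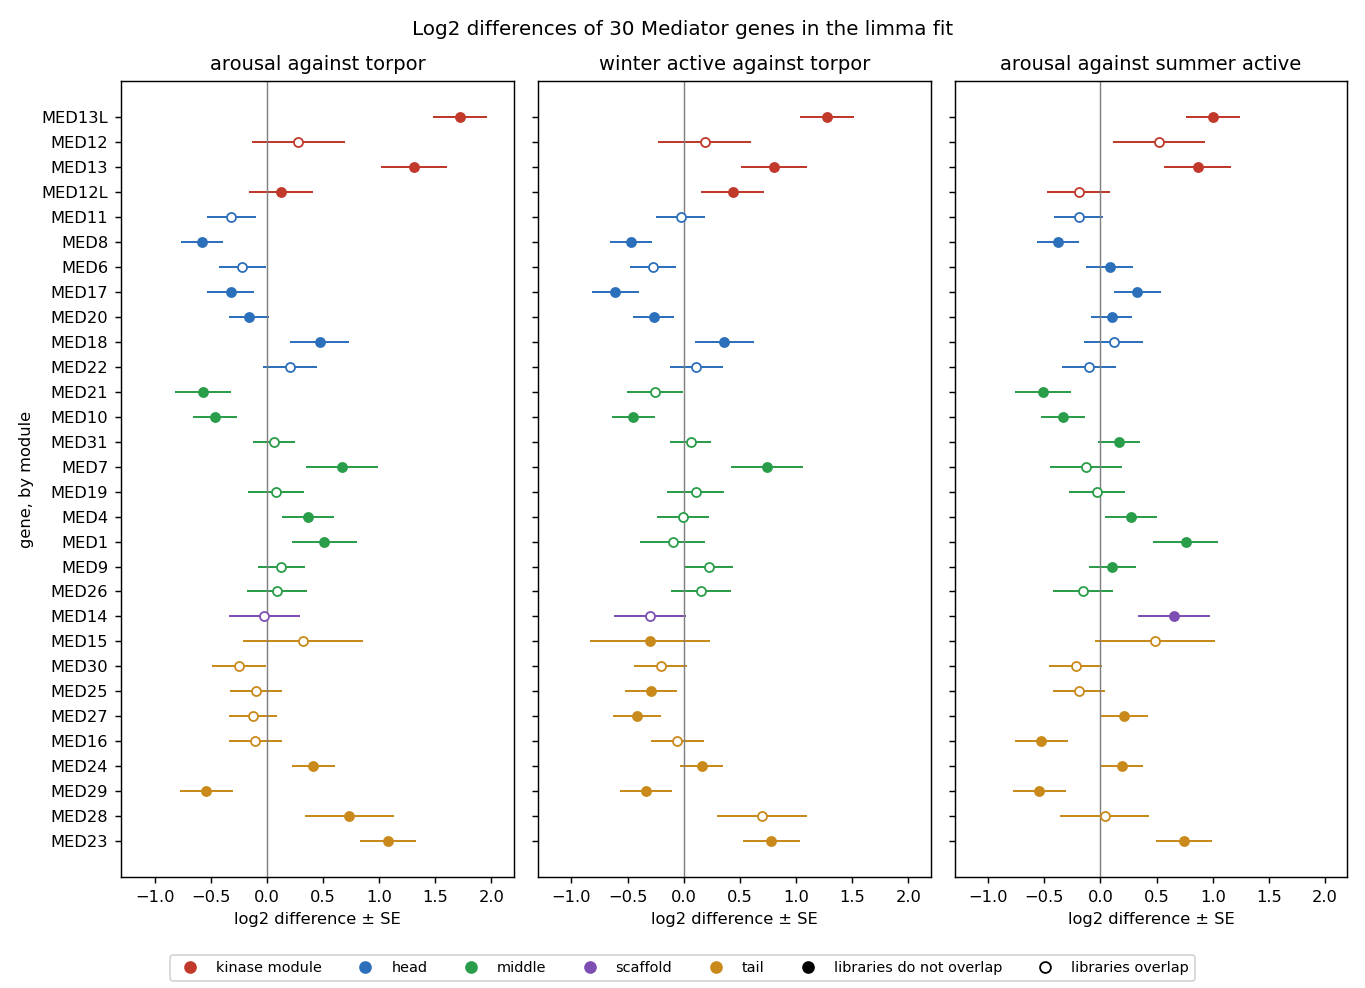
Log2 difference ± SE of each Mediator gene (rows, coloured by module) in 3 comparisons of the limma fit; filled points mark genes whose libraries do not overlap between the states. MED13L, MED13 and MED23 lie furthest to the right at arousal against torpor (1.72, 1.31 and 1.08), and no point is past the threshold.

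Other measurements moved with this comparison. The summed level of the 8 dividing-cell markers was 59.6 to 83.5 in arousal and 139 to 142 in torpor, and that of the 8 erythroid markers found was 2.42 to 5.11 in arousal, where HBZ was listed at 0 in both libraries and HBM in arousal 1, and 87.2 to 133 in torpor. The 9 red pulp macrophage markers summed to 11556 to 15860 in arousal and 18370 to 19502 in torpor, and the 7 hepatocyte markers to 1011 to 17182 in arousal and 80.2 to 721 in torpor. Their part in the Mediator differences was not tested. In whole spleen, fewer cells of a type and less RNA per cell cannot be told apart. The difference of MED13L was 1.77 without arousal 2 and 1.67 without arousal 1, that of MED12 was -0.15 without arousal 1, and MED13 and MED12 stood at 20.7 and 19.7 in arousal 1 and at 13.0 and 10.4 in arousal 2.

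The winter active state, at 26 h, was likewise set against torpor. MED13L stood at 16.0 ± 0.519 in winter active and 6.15 ± 1.74 in torpor (log2 difference 1.27, SE 0.24, adjusted p = 0.271), and MED23 at 8.00 ± 0.956 in winter active and 4.30 ± 1.23 in torpor (0.78, SE 0.25, adjusted p = 0.314). MED13 averaged 11.5 ± 3.45 in winter active and 6.02 ± 0.165 in torpor (0.81, adjusted p = 0.341). MED17, a central head subunit, had the clearest difference in the other direction, with 23.8 and 26.7 in winter active, against 44.2 and 34.4 in torpor (-0.61, SE 0.21, adjusted p = 0.326). None passed, as for 0% of all genes tested, and 5 of 30 members had an unadjusted p under 0.05, against 13.2% of all genes. Without overlap, 7 members lay higher and 8 lower, against 29.6% and 21.3% of all genes tested. MED12, MED12L, CDK8, CDK19 and CCNC differed by 0.19, 0.44, -0.56, 0.44 and -0.081, and the sign turned for CCNC with columns at 1000000 (0.091) and for MED12 with quantile normalization (-0.012). Dividing-cell markers summed to 74.5 to 90.8 in winter active and 139 to 142 in torpor, and macrophage markers to 12829 to 15933 in winter active and 18370 to 19502 in torpor. Sums of B cells (889 to 1207 in winter active, 747 to 841 in torpor) and T cells (74.6 to 107, 41.2 to 64.3) lay higher without overlap. Those of erythroid cells (4.06 to 52.1, 87.2 to 133), neutrophils (1146 to 1338, 1586 to 12262), hepatocytes (37.6 to 71.6, 80.2 to 721) and pancreatic acinar cells (23.6 to 109, 337 to 1386) lay lower without overlap. The part of all these cell types was not tested.

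The mean of arousal and winter active was also set against torpor, since 4 libraries of bats handled after capture then stand against 2. MED13L stood at 15.7 to 23.0 in these 4 libraries, against 4.91 and 7.38 in torpor, with a log2 difference of 1.50 (SE 0.21, adjusted p = 0.0987). For MED23 and MED13 the differences were 0.93 and 1.06 (SE 0.22 and 0.26, adjusted p = 0.132 and 0.138), and for MED8 -0.52 (SE 0.16, adjusted p = 0.178). No member passed, as for 0% of all genes tested, 7 of 30 had an unadjusted p under 0.05, against 19.6% of all genes, and only MED13L passed when columns were set to 1000000 (1.77, adjusted p = 0.0442), where 2.22% of all genes tested were called higher. In this contrast 7 members lay higher and 5 lower without overlap, against 20.1% and 12.5% of all genes. The other kinase module genes and partners did not pass, at 0.23 for MED12, 0.28 for MED12L, -0.44 for CDK8, 0.43 for CDK19 and -0.18 for CCNC, and the same settings turned the sign of CCNC (0.088) and MED12 (-0.0051).

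Arousal against summer active gave the smallest adjusted p of any member. The 2 states differ in season as well (November and July), and state and season cannot be told apart. MED13L averaged 22.2 ± 1.15 in arousal and 10.6 ± 1.45 in summer active, a log2 difference of 1.00 (SE 0.24, adjusted p = 0.0554). It passed when only genes with a mean of at least 5 were tested (adjusted p = 0.0493). Under that filter it was the only call among 28 members, while 795 of all genes were called in either direction. The number of all genes under that filter is not given, so no share can be set beside the call. The differences of MED13, MED1 and MED23 were 0.87, 0.76 and 0.74 (adjusted p = 0.111, 0.140 and 0.110), with both arousal libraries above both summer active libraries. MED1 stood at 21.8 and 14.2 in arousal, against 9.23 and 10.9 in summer active. No member passed while 5.52% of all genes tested did, and 4 of 30 had an unadjusted p under 0.05, against 28.9% of all genes. Of the 30, 13 lay higher and 5 lower without overlap, against 32.0% and 25.3% of all genes. With columns set to 1000000, 15 members and 43.1% of all genes tested were called higher and the all-gene median moved from 0.083 to 0.76. MED12, MED12L, CDK8, CDK19 and CCNC differed by 0.52, -0.19, -0.058, 0.18 and -0.48, of which the 3 negative values turned positive when columns were set to 1000000. Marker sums moved with this comparison: erythroid markers summed to 2.42 to 5.11 in arousal and 5808 to 8718 in summer active, B-cell markers to 595 to 871 in arousal and 2462 to 3092 in summer active, and dividing-cell markers to 59.6 to 83.5 in arousal and 340 to 617 in summer active. Sums of T cells (54.4 to 68.3 in arousal, 97.5 to 144 in summer active), squamous and gastric epithelium (0 to 0.208, 0.318 to 1617), adipocytes (40.7 to 246, 9.30 to 9.98) and pancreatic acinar cells (36.5 to 747, 13.7 to 16.5) did not overlap either. Their part in these differences was not tested.

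Between the 2 active states, MED13L stood at 16.0 ± 0.519 in winter active and 10.6 ± 1.45 in summer active (log2 difference 0.56, adjusted p = 0.342). Season and handling after capture both differ between these states and cannot be told apart. Of the tail subunits, MED23 differed by 0.45, MED16 by -0.48 and MED25, a target of acidic activators, by -0.39 (adjusted p = 0.441, 0.390 and 0.458), and MED16 and MED25 turned positive when columns were set to 1000000 (0.066 and 0.16). No member passed, against 1.03% of all genes tested, and no member had an unadjusted p under 0.05, against 14.8% of all genes. Without overlap, 6 members lay higher and 9 lower, against 27.2% and 21.9% of all genes. MED13, MED12, MED12L, CDK8, CDK19 and CCNC differed by 0.36, 0.43, 0.12, -0.30, 0.19 and -0.28, and CDK8 and CCNC turned positive when columns were set to 1000000 (0.20 and 0.27). Erythroid markers summed to 4.06 to 52.1 in winter active and 5808 to 8718 in summer active, and B-cell markers to 889 to 1207 in winter active and 2462 to 3092 in summer active. Dividing-cell markers summed to 74.5 to 90.8 in winter active and 340 to 617 in summer active. Sums of neutrophils (1146 to 1338 in winter active, 2099 to 2427 in summer active), adipocytes (47.6 to 255, 9.30 to 9.98) and pancreatic acinar cells (23.6 to 109, 13.7 to 16.5) did not overlap either. The part of these cell types was not tested.

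Torpor in November differs from the summer active state in season as well, and the 2 cannot be told apart. The torpor libraries had MED17 values of 44.2 and 34.4, and the summer active libraries 26.9 and 22.4 (log2 difference 0.65, SE 0.21, adjusted p = 0.209). MED13L averaged 6.15 ± 1.74 in torpor and 10.6 ± 1.45 in summer active (-0.72, SE 0.24, adjusted p = 0.219). MED7, a middle subunit that in yeast forms a hinge with MED21, had 32.3 and 16.2 in torpor, against 35.4 and 46.8 in summer active (-0.80, SE 0.32, adjusted p = 0.287), and MED14 had 17.5 and 24.8 in torpor, against 14.3 and 11.2 in summer active (0.68, SE 0.32, adjusted p = 0.353). No member passed, against 0.561% of all genes tested, and 3 of 30 had an unadjusted p under 0.05, against 16.0% of all genes. Without overlap, 6 members were higher and 10 lower, against 20.4% and 26.0% of all genes. MED13, MED12, MED12L, CDK8, CDK19 and CCNC differed by -0.45, 0.24, -0.32, 0.27, -0.25 and -0.20, and CDK19 and CCNC turned positive when columns were set to 1000000. Erythroid markers summed to 87.2 to 133 in torpor and 5808 to 8718 in summer active, and B-cell markers to 747 to 841 in torpor and 2462 to 3092 in summer active. Further sums did not overlap either: dividing cells (139 to 142 in torpor, 340 to 617 in summer active), T cells (41.2 to 64.3, 97.5 to 144), red pulp macrophages (18370 to 19502, 4703 to 14600), pancreatic acinar cells (337 to 1386, 13.7 to 16.5) and adipocytes (63.7 to 79.7, 9.30 to 9.98). The part of these cell types was not tested.

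The last comparison sets 26 h against 2 h after capture. MED13L was at 16.0 ± 0.519 in winter active, below its 22.2 ± 1.15 in arousal, without overlap (log2 difference -0.45, adjusted p = 0.825). MED1, MED13 and MED4 differed by -0.61, -0.50 and -0.37, each with an adjusted p of 0.825. No member passed, as for 0% of all genes tested, and no member had an unadjusted p under 0.05, against 5.45% of all genes. Without overlap, 2 members lay higher and 9 lower, against 18.1% and 21.3% of all genes. MED12, MED12L, CDK8, CDK19 and CCNC differed by -0.095, 0.31, -0.24, 0.0081 and 0.20, and CDK19 turned negative when columns were set to 1000000 (-0.18). Marker sums of B cells (889 to 1207 in winter active, 595 to 871 in arousal), T cells (74.6 to 107, 54.4 to 68.3) and squamous and gastric epithelium (1.21 to 1261, 0 to 0.208) lay higher without overlap. That of hepatocytes (37.6 to 71.6, 1011 to 17182) lay lower without overlap, and the part of these cell types was not tested. The 7 comparisons share libraries, so their differences are not independent of each other.

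The balance between kinase module and core was read in each library as the median centred log2 level of the 4 kinase module genes minus that of the 26 core genes, a quantity that a common scaling of a library leaves nearly untouched. It was -0.21 and -0.12 in summer active, -0.61 and -0.39 in torpor, 0.67 and 0.095 in arousal and 0.31 and 0.29 in winter active. Both torpor libraries were the lowest of the 8, the summer active libraries came next, and the 4 libraries taken after capture were the highest. State means were -0.17 ± 0.062 in summer active, -0.50 ± 0.16 in torpor, 0.38 ± 0.40 in arousal and 0.30 ± 0.014 in winter active (SD, n = 2 each). The balance at arousal minus that in torpor was 0.88, and at winter active minus torpor 0.80. Core medians alone lay between -0.095 and 0.081. The arousal libraries differed most from each other, and the difference from torpor was 1.18 without arousal 2 and 0.63 without arousal 1. As a score over chosen members it was given no test. It leaves out CDK8, CDK19 and CCNC, which belong to the module too. Their log2 differences at arousal against torpor were -0.32, 0.43 and -0.28, against a median of 0.80 over the 4 genes scored. At winter active against torpor their median was -0.081, against 0.62 over the 4 genes. Within the 4 genes the log2 differences at arousal against torpor were 1.72 for MED13L, 1.31 for MED13, 0.28 for MED12 and 0.13 for MED12L. The shift thus lay mostly in MED13L and MED13 and does not describe the whole module. A median of 4 genes is the mean of the middle pair, and different genes made up that pair in different libraries, such as MED12 and MED12L in winter active 1 (centred log2 levels 0.18 and 0.25) and MED13 and MED12L in arousal 2 (0.35 and -0.13).

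The ratio of CDK19 to CDK8, taken within each library after the values of both genes were seen, needs no scaling between libraries. It was 1.97 and 1.92 in summer active, 1.15 and 1.51 in torpor, 2.08 and 2.59 in arousal and 3.33 and 2.42 in winter active. Torpor libraries had the lowest ratios, and those of arousal and winter active, which overlap each other, all lay above summer active. The ratio of MED13L to MED13 overlapped between all states, at 0.832 to 1.72.

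**Figure D4:**
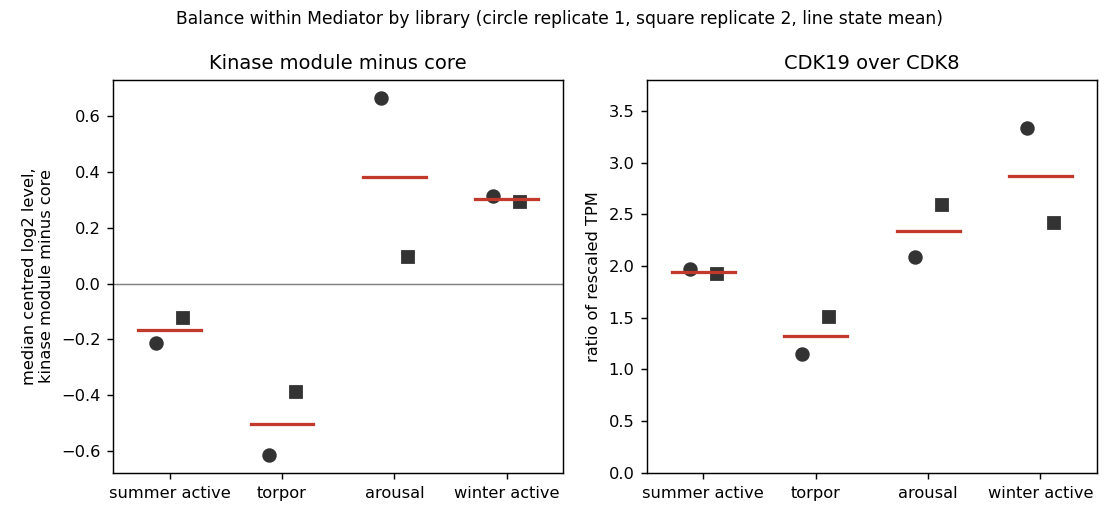
Left, median centred log2 level of the 4 kinase module genes minus that of the 26 core genes; right, ratio of CDK19 to CDK8 (axis from 0), in each library; circles are replicate 1, squares replicate 2 and lines state means (n = 2). Both quantities are lowest in the 2 torpor libraries (-0.61 and -0.39 on the left, 1.15 and 1.51 on the right).

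Other parts of the transcription machinery were read in the same fit. At arousal against torpor none of the 12 RNA polymerase II subunits, 18 general initiation factors, 9 coactivators and cohesin genes or 15 elongation and pausing genes passed, and the medians were -0.36, -0.13, 0.73 and -0.087, against 0.11 over all genes tested. All 9 coactivator and cohesin genes had positive differences, as did 7858 of the 13542 genes tested. The acetyltransferase EP300, a coactivator that works with Mediator at enhancers, had 30.2 and 16.0 in arousal, against 7.10 and 7.74 in torpor (1.45, adjusted p = 0.143). The cohesin loader NIPBL differed by 1.06 (adjusted p = 0.174). Polymerase subunits POLR2G and POLR2E went the other way (-0.71 and -0.59, adjusted p = 0.169 and 0.174), and among initiation factors GTF2A1 and GTF2H3 differed by 0.78 and 0.57 (adjusted p = 0.195 and 0.221).

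Partners in elongation had larger differences than any Mediator gene in arousal against summer active. CCNT1, the cyclin of the elongation kinase P-TEFb, stood at 10.9 and 7.39 in arousal, against 1.66 and 2.32 in summer active (log2 difference 1.75, SE 0.29, adjusted p = 0.0272). AFF4 and AFF1, scaffolds of the super elongation complex that MED26 recruits, differed by 1.46 and 1.62 (adjusted p = 0.0394 and 0.0442). These were 3 of 15 elongation genes, against 5.52% of all genes tested in either direction, and no other gene of the 4 lists passed in that comparison. The marker sums given for arousal against summer active moved with these calls too, and their part was not tested. Season differs between these 2 states as well, and state and season cannot be told apart. At arousal against torpor AFF1 and CCNT1 differed by 1.84 and 1.66 (adjusted p = 0.142 each). CCNT1, AFF4 and AFF1 also passed in arousal against summer active with columns set to 1000000 (adjusted p = 0.00783 each). That setting does not single them out, since 11 of the 15 elongation genes and 43.1% of all genes tested were then called higher.

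Gene length was set beside the differences at arousal. The span in the annotation of assembly mRhiFer1_v1.p was 274 kb for MED13L, 315 kb for MED12L, 93.1 kb for MED13 and 40.5 kb for MED23, against 2.79 kb for MED11 and 4.96 kb for MED21. Short genes also stood among the larger differences in both directions at arousal against torpor, such as MED28 (0.74, 5.17 kb), MED7 (0.67, 4.44 kb), MED8 (-0.58, 4.95 kb) and MED21 (-0.57). Across the 30 genes the log2 difference at arousal against torpor correlated with span at a Spearman rho of 0.38, and across all 13542 genes tested at 0.43, which is a description across genes that share the same 4 libraries. The median difference over all genes tested was -0.19 for spans under 10 kb, 0.045 for 10 to 30 kb, 0.30 for 30 to 100 kb and 0.53 over 100 kb. MED13L, MED13 and MED23 lay above the median of their band, and MED12L (0.13) and MED27 (-0.13, 191 kb) below it. At winter active against torpor the rho was 0.15 over the 30 genes and 0.30 over all genes. It was further from 0 in the 30 genes at arousal against summer active (0.59, and 0.34 over all genes). The same held at winter active against arousal (-0.58 and -0.26) and winter active against summer active (0.36 and 0.29). For the mean of arousal and winter active against torpor it was 0.31 and 0.39, and at torpor against summer active 0.031 and 0.013. The part of span in the kinase module differences was not tested.

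**Figure D5:**
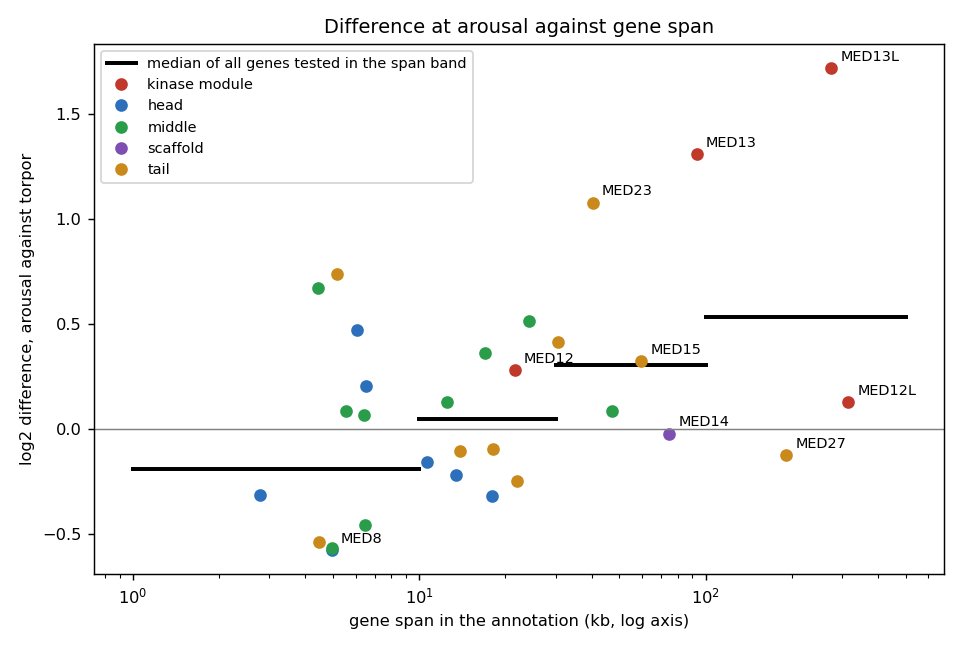
Log2 difference at arousal against torpor (y axis) and gene span in kb (x axis, log scale) for the 30 Mediator genes, coloured by module; black lines are medians of all genes tested in 4 bands of span. Medians climb from -0.19 under 10 kb to 0.53 over 100 kb, and MED13L (274 kb) lies at 1.72.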

How the data were processed

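Per the submitters' processing notes, the tools were kallisto (version 0.46.2) and sleuth (version 0.30.0). The deposited table gives a rescaled TPM signal per gene and library. Its columns do not sum to 1000000, while the sources used here do not state the reference transcriptome, the summing to genes or the rescaling. Depth is unknown. All 19652 gene identifiers matched the annotation of assembly mRhiFer1_v1.p, used for names, spans and overlaps only. Replicates are labelled biological.

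Genes with an 8-library mean of at least 1 entered limma 3.58.1 (R 4.3.3) as log2(value + 1), fitted to all 8 libraries together (eBayes with a trend, 4 residual and 3.29 prior degrees of freedom). Benjamini-Hochberg adjustment ran over all 13542 genes, with a threshold of 0.05. The fit was tested on simulated data. The test planned for plain TPM served for the rescaled values too. The members, lists and comparisons were chosen with earlier results of these data known. Named in each comparison were members past the threshold or else the 4 with the smallest p, the kinase module genes and their partners, and from other lists members past the threshold or the 2 with the smallest p where these lists are described. Gene span was used in place of a planned protein length, and paralog identity was not computed, since no protein table was used here. Alternatives were another pseudocount, filter, scaling, moderation, the replicate number as a block, a model restricted to 2 states, and dropping libraries in turn.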

Additional observations from a re-analysis of the deposited data

How the results depend on the processing

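Of 1098 values of 65 gene results under 17 alternative settings, 1054 kept their direction and side of the threshold, 11 became calls, 33 turned direction (in 23 results) and none lost a call, there being no call to lose. The replicate numbers did not pair the libraries (correlations of deviations of -0.191 to 0.322 over 6 pairs of states), and a replicate block changed 0 of 72 results, left 0 members called and gave a smallest adjusted p of 0.0533.

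Setting columns to 1000000 moved the median of all genes to 0.45 at arousal against torpor, 0.76 at arousal against summer active and 0.35 for the mean of arousal and winter active against torpor, and by construction the members moved with it. With a minimum mean of 5, 1 of 28 members passed at arousal against summer active, where 795 of all genes passed in either direction. The number of all genes under that filter is not given, so these counts cannot be compared as shares. With columns set to 1000000, members past the threshold numbered 3 at arousal against torpor, 15 at arousal against summer active and 1 for the mean against torpor, against 0 in each. The same setting turned CDK19 and CCNC to 0.12 and 0.18 (torpor against summer active), CDK8 and CCNC to 0.016 and 0.085 (arousal against torpor), CCNC to 0.091 (winter active against torpor) and 0.088 (mean against torpor), MED16, MED25, CDK8 and CCNC to 0.066, 0.16, 0.20 and 0.27 (winter active against summer active), MED12L, CDK8 and CCNC to 0.22, 0.63 and 0.27 (arousal against summer active) and CDK19 to -0.18 (winter active against arousal). Quantile normalization turned MED12L to -0.086 (arousal against torpor) and MED12 to -0.012 (winter active against torpor) and -0.0051 (mean against torpor).

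Leaving out 1 library at a time, kinase module minus core ran from 0.63 to 1.18 at arousal against torpor, 0.27 to 0.82 at arousal against summer active and -0.37 to 0.15 at winter active against arousal, which turned sign without arousal 1. MED12 ran from -0.30 to 0.78 at torpor against summer active, -0.26 to 0.82 at arousal against torpor, -0.35 to 0.72 at winter active against torpor, -0.52 to 0.33 at winter active against arousal and -0.30 to 0.77 for the mean against torpor. CCNC ran from -0.46 to 0.061, -0.58 to 0.022, -0.24 to 0.080 and -0.10 to 0.50 in the first 4 of these. CDK8 ran from -0.17 to 0.056 at arousal against summer active, and CDK8 and CDK19 from -0.51 to 0.029 and -0.069 to 0.085 at winter active against arousal. MED12L ran from -0.076 to 0.31 at winter active against summer active. MED13L, MED13 and MED23 kept their direction at arousal against torpor (1.47 to 1.97, 0.99 to 1.63 and 0.84 to 1.32). The cause of these changes was not tested. Without counts, the precision that depth gives is unknown, and 2 libraries a state limit every comparison. Protein length and paralog identity were not run, and gene span was added after seeing the data.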
